A study of Mus musculus with 12 samples.

Results

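The 10 genes described here encode the machinery of MHC class I antigen presentation and the immunoproteasome: H2-K1, H2-D1, B2m, Tap1, Tap2, Tapbp, Nlrc5, Psmb8, Psmb9 and Psmb10. They were chosen by symbol from the 15555 genes of the count table, with earlier results of these data known. The shares over all genes given below are thus no test of the set. All 10 were present and passed the filter on low counts that left 12671 genes tested. Read counts came from 12 libraries of mouse bone-marrow-derived macrophages, which are macrophages grown from marrow in culture. Marrow was cultured to day 9 in medium supplemented with L-cell supernatant, which supplies CSF-1, and every group shared that treatment. There were 3 libraries each of wild type (WT) cells, of Cbl-/- cells, of Cbl-b-/- cells and of cells lacking both genes by their label (DKO). Both proteins are ubiquitin ligases that restrain signalling from tyrosine kinase receptors. The sources used here do not give the strain, the age and number of the mice, or the design of the knockout alleles. Per the labels, RNA was pooled in equal amounts, but what was pooled into what is left unsaid. Replicates are not said to be separate animals, so p-values measure the spread between libraries and that spread may be technical.

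MHC class I molecules display peptides from proteins made inside the cell to CD8 T cells. Proteasomes cut the proteins, the TAP transporter carries the peptides into the endoplasmic reticulum, tapasin holds empty class I molecules at TAP, and the loaded heavy chain with its beta-2-microglobulin partner moves to the cell surface. In cells exposed to interferon, the catalytic subunits of the proteasome are replaced by inducible ones, which gives the immunoproteasome, and the transactivator NLRC5 drives transcription of class I genes. Macrophages express the pathway at rest and raise it when activated.

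Totals ran from 21048103 to 43946503 counts per library. Levels are given as CPM, counts scaled to library size. Cbl fell from a WT mean of 140 CPM (SD 3.4, n = 3) to 51.5 (SD 2.3) where the label was Cbl-/- and to 37.6 (SD 3.1) where it was DKO. Cblb did not bear out its label, with a WT mean of 59.4 CPM (SD 3.5) against 52.8 (SD 2.9) for Cbl-b-/- (edgeR adjusted p = 0.46). For the label DKO it was 71.7 (SD 3.2), higher than in WT (log2 fold change 0.27, edgeR adjusted p = 0.0027). For Cbl-/- it was 68.45 (SD 0.69), also higher than in WT (0.20, edgeR adjusted p = 0.048). Which exons the alleles remove is unknown here. Every direction drawn from the libraries labelled Cbl-b-/- or DKO thus rests on those labels, also where the short names are used. The library labelled Cbl-b-/- 3 was the least deep and stood apart from its 2 partners on the third principal component (-39.4 against 7.30 and 10.2). The library labelled DKO 3 differed most from its partners, with a chi-square per degree of freedom of 44.7 and 55.3 against 10.2 between DKO 1 and DKO 2. The 8 macrophage markers summed to 17070 to 22670 CPM over all libraries, with 11920 to 17320 CPM from Lyz2. Cd3e, Cd3d, Cd3g, Ms4a1, Mpo and Elane were absent from the table. It holds only genes with at least 1 count in WT 1, so absence does not speak for the other libraries. Other markers of T cells, B cells and granulocytes were present, among them Cd2, Cd79b, S100a8 and S100a9.

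Of the 10 genes, 7 lie on mouse chromosome 17, in the major histocompatibility complex (GRCm38). Tapbp is at 33915899 to 33929292, H2-K1 at 33996017 to 34000347, Psmb9 at 34181987 to 34187764, Tap1 at 34187553 to 34197225, Psmb8 at 34197721 to 34201454, Tap2 at 34203527 to 34216321 and H2-D1 at 35262730 to 35267499. Psmb9 and Tap1 point away from each other and their annotated exons overlap by 212 bases on opposite strands. Only 495 bases separate Tap1 from Psmb8. The others are B2m on chromosome 2 (122147686 to 122153083), Nlrc5 on chromosome 8 (94434356 to 94527272) and Psmb10 on chromosome 8 (105935735 to 105938444).

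Promoter sequences from RefSeq (GRCm38.p6) were matched for 8 of the 10 genes, all but Tap2 and Nlrc5, and the 250 bases before each start were searched on both strands. They are shown because the class I heavy-chain genes share elements there. The kappaB-like motif (GGGA, any 3 bases, CCC) was found in H2-K1 and H2-D1, against 4.77% of 32851 promoters of the same length. In both genes the matches on both strands overlap in the same palindrome, in capitals in these stretches on chromosome 17 (chr17:34000439-34000468, minus strand, and chr17:35262913-35262942, plus strand):
H2-K1: gcccagggctGGGGATTCCCCatctccaca
H2-D1: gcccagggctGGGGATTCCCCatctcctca
The letters ATTGG, the core of the Y box (an inverted CCAAT box), were found in 6 genes, among them H2-K1, H2-D1, Tap1, Tapbp and Psmb9, against 33.85% of all promoters. The windows of Tap1 and Psmb9 overlap, and their matches are the same bases read from opposite strands, so they are not separate sites. In the heavy-chain genes the letters are in capitals in these stretches, at chr17:34000348-34000377 (minus strand) and chr17:35263005-35263034 (plus strand):
H2-K1: cagctcttacccccATTGGgtggcgcgatc
H2-D1: aggtctcactatcATTGGgtggcgagattc
Between the kappaB palindrome and the Y box lie 84 bases in both heavy-chain genes, and 89 of the 100 bases from the first motif to the end of the second are identical. The core of the interferon-stimulated response element (GAAA, any 2 bases, GAAA) was found in B2m alone (2.977% of all promoters), and the STAT-binding letters TTCNNNGAA in Psmb8 alone (7.02%), at chr2:122147538-122147567 and chr17:34198087-34198116, both on the plus strand:
B2m: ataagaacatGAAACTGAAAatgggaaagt
Psmb8: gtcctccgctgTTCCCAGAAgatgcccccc
The RefSeq start lies 364 bases inside the GENCODE gene for H2-D1, 434 for Psmb9, 474 for Psmb8 and 3579 for Tapbp. These windows may thus lie within a longer transcript. A match describes letters in a window and shows no binding.

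All 10 genes were higher in the libraries labelled DKO than in WT, by 1.09-fold for H2-D1 to 1.70-fold for B2m and Nlrc5, and none passed the test in Cbl-/- or in the libraries labelled Cbl-b-/-. Genes passed at an adjusted p under 0.05 (edgeR quasi-likelihood, adjusted by Benjamini-Hochberg over 12671 genes). In DKO against WT, 35.4% of all genes tested passed, 19.1% higher and 16.3% lower, 23.7% were higher without overlap, and the median log2 fold change was 0.63 over the 10 genes and 0.00 over all genes. Scaling by total counts turned the balance over all genes in DKO against WT from 2423 higher and 2062 lower to 1773 and 2873, with a median of -0.07, and 9 of the 10 genes were then higher. In bulk samples a larger share of cells with a transcript and more transcript per cell cannot be told apart.

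**Figure D1:**
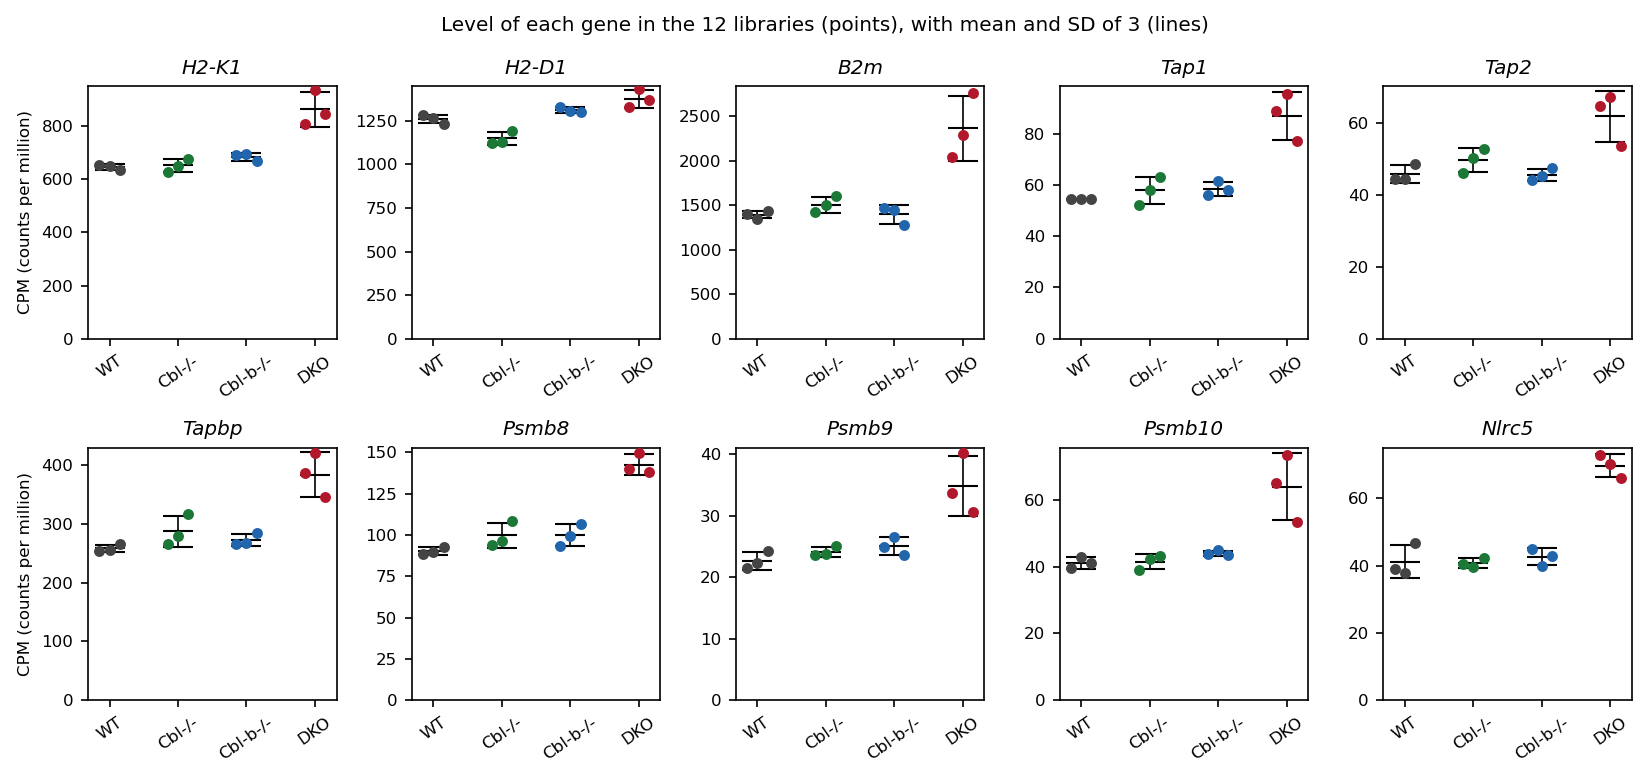
Level of each of the 10 genes in CPM (vertical axes, starting at 0) in the 12 libraries, grouped by genotype label on the horizontal axis. Points are libraries, and lines give the mean and SD of 3. All 3 libraries labelled DKO lie above all 3 WT libraries for every gene, and the margin is narrowest for H2-D1 (1332 to 1434 against 1234 to 1281 CPM).

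The heavy chains were abundant. H2-K1, which encodes the heavy chain K that binds the peptide, had 655, 651 and 635 CPM in the WT libraries, 629, 650.5 and 678 in Cbl-/-, 689.8, 695 and 668 in those labelled Cbl-b-/- and 807, 936 and 847 in those labelled DKO. The 3 DKO values lay above all 9 others, and the Cbl-/- values overlapped those of WT. H2-K1 rose by a log2 fold change of 0.42 in DKO against WT (SE 0.06, adjusted p = 2.7e-05). H2-D1, the heavy chain D, had 1281, 1265 and 1234 CPM in WT, 1124, 1131 and 1192 in Cbl-/-, 1330, 1304 and 1300 in Cbl-b-/- and 1332, 1434 and 1370 in DKO. All Cbl-/- libraries were below all WT libraries, and DKO lay above all others by a small margin. H2-D1 passed in DKO against WT with 0.13 (SE 0.05, adjusted p = 0.047), and this call was lost in 9 of 14 alternatives (adjusted p 0.0093 to 0.35). Among those were leaving out WT 1, WT 2, WT 3 or DKO 2 (adjusted p = 0.089, 0.11, 0.13 and 0.14) and scaling by total counts (0.06, adjusted p = 0.35).

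Class I genes are close copies, and the sources used here do not say how reads with several matches were counted. Of the 75-base windows in the longest coding transcript, 1.55% in H2-K1 and 6.90% in H2-D1 also occurred in a transcript of another gene, and of the 50-base windows 8.79% and 14.3%. H2-K1 shared most with H2-D1, and H2-D1 most with H2-Q1. The ratio of H2-K1 to H2-D1 counts, looked at after the values were seen, was 0.512 to 0.515 in WT libraries and 0.606 to 0.653 in those labelled DKO, with Cbl-/- (0.559 to 0.575) and Cbl-b-/- (0.514 to 0.533) between or near them. The 2 heavy chains thus did not move by the same proportion, although the shared windows make both values uncertain.

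B2m encodes beta-2-microglobulin, the light chain common to all classical class I molecules. It had 1399, 1349 and 1436 CPM in WT, 1418, 1497 and 1599 in Cbl-/-, 1466, 1449 and 1275 in Cbl-b-/- and 2041, 2291 and 2765 in DKO. The lowest DKO library lay well above the highest of the other 9. B2m rose by 0.76 in DKO against WT (SE 0.09, adjusted p = 5.7e-06), and by 0.64 (adjusted p = 1.2e-06) without DKO 3, in which it was highest. The ratio of B2m to H2-D1 counts, also chosen after the values were seen, was 1.07 to 1.16 in WT and 1.53 to 2.02 in DKO.

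Tap1 and Tap2 encode the subunits of the peptide transporter, and Tapbp encodes tapasin. Tap1 had 54.4, 54.5 and 54.6 CPM in WT, 52.4, 58.3 and 63.2 in Cbl-/-, 56.1, 61.4 and 58.0 in Cbl-b-/- and 88.9, 95.5 and 77.0 in DKO. The WT libraries were close together, the Cbl-/- libraries lay on both sides of them, and DKO lay above all. Tap1 rose by 0.68 in DKO against WT (SE 0.08, adjusted p = 5.2e-06). Tap2 had 44.3, 44.3 and 48.6 CPM in WT, 46.0, 50.2 and 52.8 in Cbl-/-, 44.1, 45.2 and 47.4 in Cbl-b-/- and 64.6, 67.0 and 53.6 in DKO. DKO 3 was close to the highest Cbl-/- library, and the groups did not overlap. Tap2 rose by 0.43 (SE 0.08, adjusted p = 5.3e-04). Tapbp had 254, 255 and 265 CPM in WT, 265.5, 279 and 317 in Cbl-/-, 265, 266.5 and 284 in Cbl-b-/- and 386, 419.9 and 345 in DKO. The lowest DKO library was above the highest Cbl-/- library, and Tapbp rose by 0.57 (SE 0.07, adjusted p = 1.5e-05).

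Psmb8, Psmb9 and Psmb10 encode the inducible catalytic subunits LMP7, LMP2 and MECL-1. Psmb8 had 88.2, 89.9 and 92.9 CPM in WT, 94.3, 96.6 and 108 in Cbl-/-, 93.6, 99.4 and 107 in Cbl-b-/- and 140.2, 149.9 and 138 in DKO. Both single-knockout labels lay just above WT without overlapping it, and DKO lay far above all. Psmb8 rose by 0.66 in DKO against WT (SE 0.06, adjusted p = 8.2e-07). Psmb9 had 21.4, 22.2 and 24.3 CPM in WT, 23.6, 23.7 and 25.0 in Cbl-/-, 24.9, 26.6 and 23.6 in Cbl-b-/- and 33.7, 40.1 and 30.6 in DKO. Only DKO was clear of WT, with a rise of 0.62 (SE 0.09, adjusted p = 6.1e-05). Psmb10 had 39.5, 43.0 and 41.0 CPM in WT, 38.8, 42.2 and 43.2 in Cbl-/-, 43.8, 44.9 and 43.4 in Cbl-b-/- and 65.0, 73.3 and 53.3 in DKO. DKO 3 was nearest to the other groups, and Psmb10 rose by 0.63 (SE 0.09, adjusted p = 3.9e-05).

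Nlrc5, the transactivator of class I genes, had 39.1, 37.8 and 46.7 CPM in WT, 40.5, 39.6 and 42.4 in Cbl-/-, 45.0, 39.95 and 43.0 in Cbl-b-/- and 73.0, 70.3 and 66.0 in DKO. Both single-knockout labels lay within the WT range, and DKO lay above it. Nlrc5 rose by 0.76 in DKO against WT (SE 0.08, adjusted p = 1.1e-06), the same size as for B2m. Its exons overlap by 78 bases with those of 9330175E14Rik on the opposite strand. Larger opposite-strand overlaps include those of Tapbp (904 bases with Gm19412), Tap2 (533 with Gm15821) and Psmb8 (498 with Gm20496). Tapbp also overlaps Zbtb22 by 149 bases on the same strand. The sources used here do not say whether counting used strand.

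The 3 libraries labelled DKO did not rank alike. DKO 2 held the highest of the 3 values for 8 genes, DKO 3 held the lowest for 7 (Tap1, Tap2, Tapbp, Nlrc5, Psmb8, Psmb9 and Psmb10), and DKO 1 held the lowest for H2-K1, H2-D1 and B2m. The median over the 10 genes of log2 CPM minus its WT mean was 0.58 in DKO 1, 0.72 in DKO 2 and 0.42 in DKO 3, and -0.03 to 0.17 in the other 9 libraries. Without DKO 3 all 10 genes still passed against WT, with a median of 0.66, and without DKO 2, which lost H2-D1, 9 passed with a median of 0.51.

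Per kilobase of the longest coding transcript, the order of levels was the same in the 4 genotypes. In WT, B2m led with 1622 ± 51 CPM per kilobase (SD, n = 3), followed by H2-D1 at 599.5 ± 11, H2-K1 at 399.7 ± 6.8, Tapbp at 89.0 ± 2.0, Psmb8 at 55.5 ± 1.5, Psmb10 at 31.4 ± 1.4, Tap1 at 18.45 ± 0.030, Psmb9 at 16.8 ± 1.1, Tap2 at 13.3 ± 0.72 and Nlrc5 at 5.44 ± 0.63. Chains of the surface molecule were thus more abundant than the loading and proteasome genes, and the regulator was the lowest. Tap1, Psmb9 and Tap2 changed places when the length of all annotated exons was used, with Tap2 at 12.1, Tap1 at 9.95 and Psmb9 at 6.19 in WT.

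In Cbl-/- against WT none of the 10 genes passed by edgeR, against 9.87% of all genes. At an unadjusted p under 0.05 by edgeR were 2 (H2-D1 and Psmb8), against 2760 of 12671 genes tested. By DESeq2 1 passed the threshold (H2-D1, adjusted p = 0.030), and by limma voom 0. The log2 fold changes ran from -0.13 for H2-D1 (SE 0.05, adjusted p = 0.10) to 0.15 for Tapbp (SE 0.07, adjusted p = 0.24), with a median of 0.09. When only Cbl-/- and WT were fitted, H2-D1 passed at -0.13 (adjusted p = 0.017). The libraries did not overlap for 3 genes, H2-D1 lower and Tapbp and Psmb8 higher, against 37.6% of all genes.

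In the libraries labelled Cbl-b-/- against WT none passed by edgeR, by DESeq2 or by limma voom, against 0.489% of all genes by edgeR. Psmb8 alone was at an unadjusted p under 0.05 by edgeR, against 958 of 12671 genes tested. The log2 fold changes of the 10 genes ran from -0.01 for Tap2 to 0.15 for Psmb9 (SE 0.09, adjusted p = 0.83), with a median of 0.08. For 6 genes (H2-K1, H2-D1, Tap1, Tapbp, Psmb8 and Psmb10) all 3 of these libraries lay above all 3 WT libraries, against 7.84% of all genes higher without overlap. The differences were at most 0.15 on the log2 scale. All comparisons with WT used the same 3 WT libraries.

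**Figure D2:**
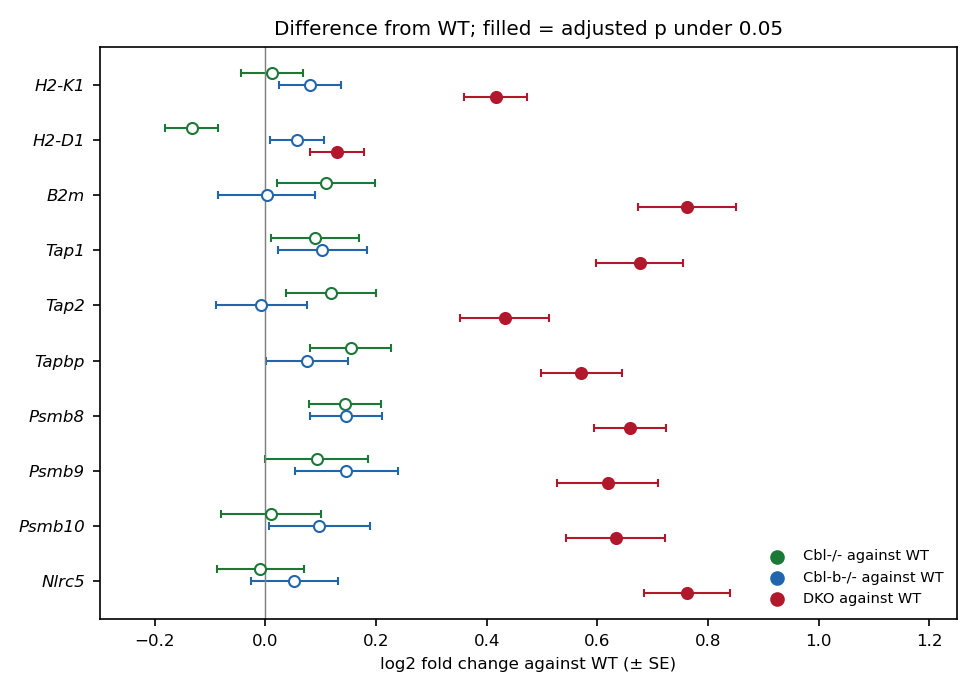
Log2 fold change against WT (horizontal axis, with its standard error) for the 10 genes in Cbl-/-, Cbl-b-/- and DKO, with filled points for an adjusted p under 0.05. The DKO points lie between 0.13 and 0.76 and are filled, and those of the other labels lie between -0.13 and 0.15 and are open.

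Against Cbl-/-, all 10 genes were higher in the libraries labelled DKO (16% of all genes were higher), from 0.26 for H2-D1 (SE 0.05, adjusted p = 6.2e-04) to 0.77 for Nlrc5 (SE 0.08, adjusted p = 1.8e-06). Tap2, at 0.31 (SE 0.08, adjusted p = 0.0073), lost its call without Cbl-/- 1 and with scaling by total counts (adjusted p = 0.051 in each). Against the libraries labelled Cbl-b-/-, 9 were higher (17.7% of all genes were higher), led by B2m at 0.76 (SE 0.09, adjusted p = 7.0e-06) and Nlrc5 at 0.71 (SE 0.08, adjusted p = 3.3e-06). H2-D1 was at 0.07 there (SE 0.05, adjusted p = 0.27). Between the 2 single-knockout labels only H2-D1 passed, higher in Cbl-b-/- than in Cbl-/- by 0.19 (SE 0.05, adjusted p = 0.023; 7.37% of all genes passed). That call was lost without Cbl-/- 1, Cbl-/- 2, Cbl-b-/- 1, Cbl-b-/- 2 or Cbl-b-/- 3 (0.17, 0.18, 0.18, 0.19 and 0.19).

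Whether the change in DKO exceeded the sum of both single labels on the log2 scale was tested as an interaction term over all 12 libraries. The departure was positive for all 10 genes and passed for 7 (8.39% of all genes passed with a positive departure), with a median of 0.37. It was largest for the regulator Nlrc5 at 0.72 (SE 0.11, adjusted p = 3.2e-04), B2m at 0.65 (SE 0.12, adjusted p = 0.0020) and Psmb10 at 0.53 (SE 0.13, adjusted p = 0.0097). Tap1 (0.48), Psmb8 (0.37), Tapbp (0.34) and H2-K1 (0.32) passed as well. H2-D1 (0.21, adjusted p = 0.052), Psmb9 (0.38, adjusted p = 0.060) and Tap2 (0.32, adjusted p = 0.070) did not. Without DKO 3 all 10 passed, with a median of 0.44, and H2-D1 also passed without DKO 1 (adjusted p = 0.043). Tapbp lost its call without any 1 of 9 libraries, all but Cbl-/- 3, Cbl-b-/- 3 and DKO 3 (0.27 to 0.35). With scaling by total counts 4 genes passed, and the median departure over all genes moved from 0.00 to -0.11.

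**Figure D3:**
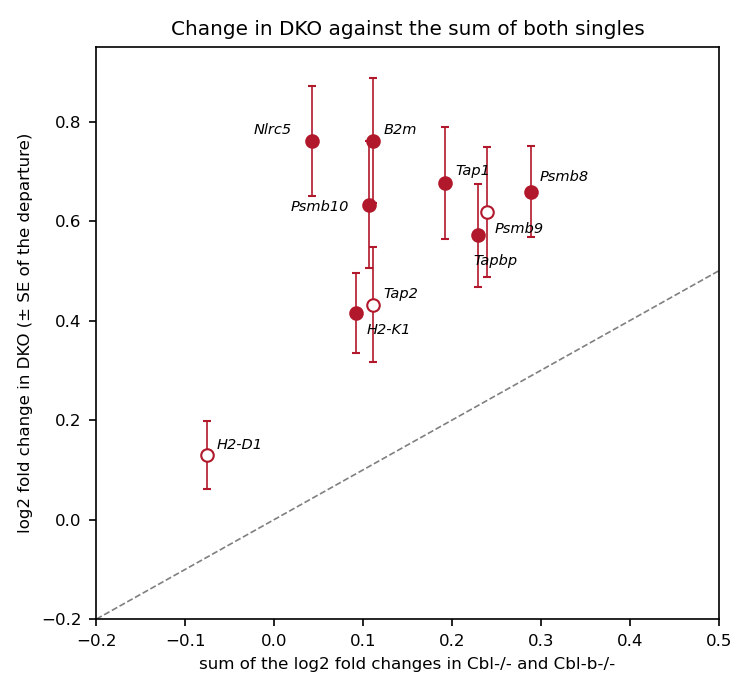
Log2 fold change in DKO against WT (vertical axis) against the sum of the log2 fold changes in Cbl-/- and Cbl-b-/- (horizontal axis) for the 10 genes. Bars are the standard error of the departure, the dashed line marks equality, and filled points have an adjusted p under 0.05 for the departure. All points lie above the line, with the smallest departure at H2-D1 (0.21) and the largest at Nlrc5 (0.72).

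Each inducible subunit was set against the constitutive subunit that it replaces, as a ratio of counts within a library, in which library scaling cancels. The ratios of different pairs are not comparable with each other, since gene lengths differ. Psmb8 counts were 78.4%, 78.0% and 81.3% of Psmb5 counts in WT, 83.1%, 84.1% and 93.6% in Cbl-/-, 79.2%, 81.3% and 92.4% in Cbl-b-/- and 108.1%, 107.8% and 109.9% in DKO. DKO lay above all 9 others and varied little. Psmb9 counts were 22.2%, 23.4% and 24.4% of Psmb6 counts in WT, 24.3%, 24.7% and 27.7% in Cbl-/-, 25.3%, 25.1% and 24.9% in Cbl-b-/- and 27.2%, 31.3% and 27.3% in DKO. DKO was clear of WT and Cbl-b-/- and overlapped Cbl-/-. Psmb10 counts were 39.2%, 44.3% and 40.2% of Psmb7 counts in WT, 39.1%, 41.6% and 43.4% in Cbl-/-, 42.7%, 42.8% and 41.9% in Cbl-b-/- and 54.9%, 60.0% and 43.1% in DKO, where DKO 3 fell among the other genotypes.

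The log2 ratio differed over the 4 genotypes for Psmb8 to Psmb5 (DKO minus WT 0.46; exact permutation test over the 12 libraries, p = 0.0042, adjusted over 3 ratios 0.013) and for Psmb9 to Psmb6 (0.29; exact p = 0.013, adjusted 0.019). For Psmb10 to Psmb7 (0.34; exact p = 0.061, adjusted 0.061) it did not pass, and it did without DKO 3 (0.48; exact permutation p = 0.013) or without WT 2 (0.39; exact p = 0.034). For Psmb9 to Psmb6 the difference was lost without WT 1 (0.26; exact p = 0.058). A pair of genotypes has 3 against 3 libraries, where the smallest two-sided p of an exact permutation test is 0.10. DKO against WT reached 0.10 for the first pair and for the second, and 0.20 for Psmb10 to Psmb7.

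**Figure D4:**
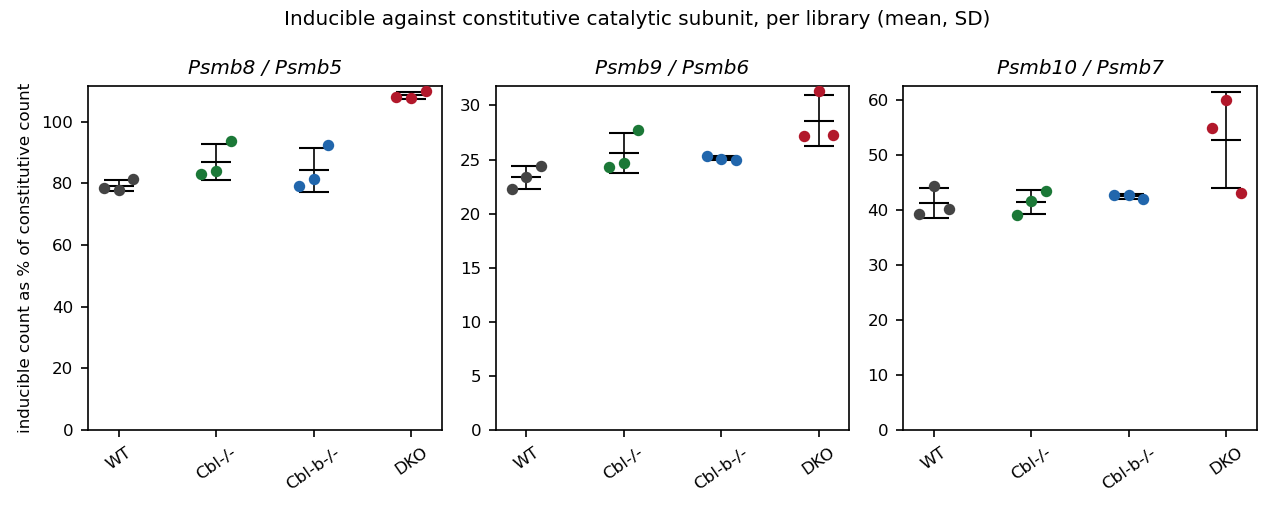
Counts of each inducible subunit as a percentage of the constitutive subunit it replaces (vertical axes, starting at 0) in the 12 libraries by genotype label, with points for libraries and lines for the mean and SD of 3. The Psmb8 to Psmb5 ratio is 107.8% to 109.9% in DKO and at most 93.6% elsewhere.

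Of 14 constitutive subunits of the 20S core, 12 rose in DKO against WT, 0 fell and 2 did not pass (median 0.24; 19.1% of all genes were higher), with Psmb5 at 0.20 (SE 0.05, adjusted p = 0.0056), Psmb6 at 0.32 (SE 0.06, adjusted p = 6.6e-04), Psmb7 at 0.28 (SE 0.05, adjusted p = 2.3e-04) and the alpha-ring gene Psma4 at 0.31. With scaling by total counts, and likewise without WT 1, 8 of the 14 were higher. Of 9 genes for proteasome activators and assembly 4 rose, 0 fell and 5 did not pass (median 0.13), and 2 were higher with scaling by total counts. The largest was Psme2, which encodes a subunit of the interferon-inducible activator PA28, with 60.8, 61.8 and 65.5 CPM in WT and 100.2, 113.9 and 112.4 in DKO (0.80, SE 0.07, adjusted p = 2.5e-07). Its partner Psme1 rose by 0.40 (SE 0.05) and Psme4, the activator PA200, by 0.23 (SE 0.06).

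Of 14 peptide loading and trimming genes 7 rose in DKO, 0 fell and 7 did not pass (median 0.19), beside 19.1% higher and 16.3% lower over all genes. The risers included the tapasin homologue Tapbpl (0.61, SE 0.10, adjusted p = 1.6e-04), the peptide-trimming aminopeptidase Erap1 (0.48, SE 0.08, adjusted p = 1.3e-04) and the chaperone calreticulin, Calr (0.39, SE 0.05, adjusted p = 1.8e-05). Tapbpl had 10.2, 9.60 and 10.0 CPM in WT and 14.1, 16.1 and 15.4 in DKO. In Cbl-/-, where 9.87% of all genes passed, 1 gene of this list of 14 did, the aminopeptidase Lnpep (0.35, SE 0.07, adjusted p = 0.0062).

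Of the 16 other class I heavy-chain genes 12 were tested, of which 6 rose in DKO, 1 fell and 5 did not pass (median 0.42). Over all genes 19.1% were higher in DKO and 16.3% lower. H2-T22 had 38.7, 40.3 and 41.9 CPM in WT and 61.9, 69.8 and 63.4 in DKO (0.69, SE 0.07, adjusted p = 1.1e-06). H2-T23, which encodes the ligand Qa-1 of NK-cell receptors, fell in Cbl-/- (-0.32, SE 0.08, adjusted p = 0.013) and rose in DKO (0.41, SE 0.08, adjusted p = 4.8e-04). The fall was lost without WT 1, WT 3, Cbl-/- 1 or Cbl-/- 2 (adjusted p = 0.060, 0.072, 0.070 and 0.065). H2-T24 (1.37), H2-Q4 (0.32) and H2-Q6 (0.82, adjusted p = 0.038, lost without WT 1, WT 3 or any 1 DKO library, at 0.62 to 0.84) rose in DKO, and H2-Q7 (0.59, adjusted p = 0.054) and H2-T10 (0.18, adjusted p = 0.41) did not pass. These H2-Q and H2-T genes are near copies too, so their counts carry the same doubt as those of H2-D1. H2-M2 rose as well (2.59, edgeR adjusted p = 0.0047) and Cd1d1, which presents lipids, fell (-0.45, edgeR adjusted p = 0.011). Both were chosen after their values were seen. H2-M2 was near the floor, with 6, 6 and 7 counts in WT and 38, 37 and 42 in DKO. H2-Q6 was low too, with means of 1.17 CPM in WT and 2.10 in DKO. Without WT 1 no gene of this list was lower.

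Of 18 genes for transcription factors and other regulators of class I transcription, 5 rose in DKO, 3 fell and 10 did not pass (median 0.00), beside 19.1% higher and 16.3% lower over all genes. The number lower was 5 without DKO 3. Among the risers were the signal transducer Stat2 and the interferon regulatory factors Irf7, Irf1 and Irf9. Stat2 rose by 0.81 (SE 0.07, adjusted p = 1.8e-07), Irf7 by 1.90 (SE 0.18, adjusted p = 8.7e-06), and, chosen after their values were seen, Irf1 by 0.45 (SE 0.07) and Irf9 by 0.44 (SE 0.07). Of the 7 factors of the list that bind the X and Y boxes, Nfya (-0.36, SE 0.05, adjusted p = 2.3e-05) and Creb1 (-0.25, SE 0.08, adjusted p = 0.022) fell. The other 5, Rfxank (-0.35, adjusted p = 0.14), Nfyb (-0.08), Rfxap (-0.07), Rfx5 (0.07) and Nfyc (0.11, adjusted p = 0.29), did not pass, and these factors were named after their values were seen. The third to fall was Irf8 (-0.29, SE 0.08, adjusted p = 0.0079), likewise named after its value was seen. Of 8 tested genes for interferon receptors and their signalling, the inhibitor Socs1 rose (1.32, SE 0.24). Ifnar2 (-0.19, edgeR adjusted p = 0.012) and Ifngr1 (-0.16, edgeR adjusted p = 0.046) fell, and 5 did not pass. The fall of Ifnar2 was lost without DKO 1 (-0.16, adjusted p = 0.055), and that of Ifngr1 without any 1 WT library, DKO 1 or DKO 3 (-0.18 to -0.14). Ifnb1 was too low to be tested, with 2, 3 and 3 counts in DKO (0.0557 to 0.0954 CPM) and 0 or 1 count in every other library. The list held 12 genes, of which 9 were in the table, and no interferon gene was among those tested.

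**Figure D5:**
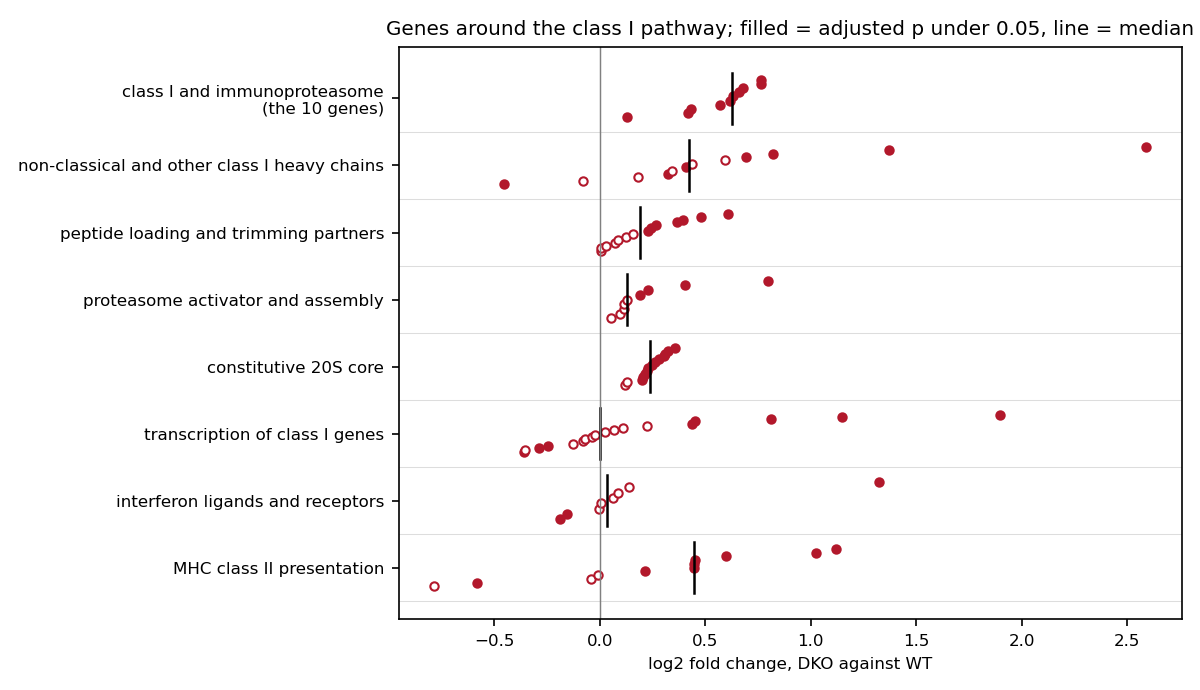
Log2 fold change in DKO against WT (horizontal axis) for the tested genes of each list around the class I pathway (rows), with filled points for an adjusted p under 0.05 and a line at the median of each list. The 10 genes have a median of 0.63, the constitutive 20S core 0.24 and the regulators of class I transcription 0.00.

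MHC class II genes, which present peptides to CD4 T cells, differed between the labels in another way. Of 11 class II genes, 5 fell in Cbl-/- (4.19% of all genes were lower), 0 rose and 6 did not pass (median -0.33), led by H2-Eb1 (-1.05, SE 0.10, adjusted p = 1.3e-06) and Cd74 (-0.62, SE 0.06, adjusted p = 1.8e-06). In the libraries labelled Cbl-b-/-, 1 fell, 0 rose and 10 did not pass (median -0.25), where 12 of 12671 genes tested were lower. In DKO 7 rose, 1 fell and 3 did not pass (median 0.45), beside 19.1% higher and 16.3% lower over all genes. Among the risers were Cd74 (0.45, SE 0.06), H2-Ab1 (0.60, SE 0.09) and H2-Aa (0.45, SE 0.08). The number higher was 4 without WT 2, and the 1 fall, of H2-Ob (-0.58, adjusted p = 0.035, named after its value was seen), was lost without any 1 WT library, DKO 1 or DKO 3. Cd74 had 154, 156 and 151 CPM in WT and 96.9, 102 and 100.4 in Cbl-/-. It had 118, 126 and 126 CPM in Cbl-b-/- and 195, 226 and 206 in DKO. None of the 10 class I and immunoproteasome genes passed in Cbl-/- by edgeR, and the difference between the lists was not tested.

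Markers of other myeloid cells moved with the DKO label, and some of them moved in Cbl-/- as well. The 5 monocyte markers summed to 56.1 to 61.6 CPM in WT libraries and 141 to 189 in those labelled DKO, with Cbl-/- (82.5 to 93.0) and Cbl-b-/- (77.4 to 86.6) between them. In DKO 4 of 5 rose, among them Vcan (2.56, SE 0.10) and Ly6c2 (5.63, SE 0.50), where 19.1% of all genes were higher and 16.3% lower. Ly6c2 was near the floor in WT, with 6, 7 and 0 counts, and had 189, 208 and 257 in DKO. The 4 granulocyte markers of 9 in the table summed to 2.72 to 3.86 CPM in WT and 4.34 to 5.76 in Cbl-/-. They summed to 2.925 to 4.135 CPM in Cbl-b-/- and 64.0 to 86.7 in DKO, where all 4 rose. Ly6g, Mpo, Elane, Camp and Retnlg were absent from the table. The 5 dendritic cell markers of 7 in the table summed to 1.04 to 1.18 CPM in WT and 2.91 to 3.18 in DKO, where Zbtb46 rose. The 4 stromal and endothelial markers of 6 summed to 3.39 to 5.61 CPM in WT and 12.3 to 15.8 in DKO, where 3 rose. T and NK cell markers (2 of 8 in the table) summed to at most 0.868 CPM and B cell markers (2 of 5) to at most 1.01 in every library. Of the 8 macrophage markers, 2 rose in DKO (Fcgr1 and Cd14), 3 fell, Mertk the most (-1.21, SE 0.13), and 3 did not pass. With scaling by total counts 5 of the 8 were lower. In Cbl-/- against WT, 720 of 12671 genes tested were higher and 531 lower. There 2 of the 4 granulocyte and 2 of the 5 monocyte markers rose, among them Ngp (1.19, SE 0.26) and Vcan (1.11, SE 0.10). Of the 8 macrophage markers 3 fell. The calls of S100a9, Ccr2, Lyz2 and Adgre1 in Cbl-/- were lost in some alternatives. The part of these markers in the rise of the class I genes was not tested.

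The 5 genes outside the set whose log2 CPM, each minus its own WT mean, stayed closest to the median of the 10 genes over the 12 libraries were Pdxk, Selenow, Ctsz, Dbnl and Znfx1. Their root mean squared differences were 0.06 to 0.07, and those of the members themselves ran from 0.05 for Tapbp to 0.26 for H2-D1. In DKO against WT, Pdxk was at 0.51, Selenow at 0.58, Ctsz at 0.61, Dbnl at 0.48 and Znfx1 at 0.53. None of the 5 passed in Cbl-/- (adjusted p 0.20 to 0.97). The 5 were picked for likeness over the same 12 libraries, so these values largely follow from that choice. The likeness is one of size over these libraries and was not tested.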

How the data were processed

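Messenger RNA was measured in 12 libraries, 3 for each of 4 genotypes. The authors deposited raw read counts for each gene, and per the submitters' processing notes the build was GRCm38.p5. The sources used here do not give the aligner, counter or strand setting. Symbols, positions and lengths came from GENCODE M21 (GRCm38), which matched 15506 of the 15555 genes, and promoters from RefSeq (GRCm38.p6).

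All libraries were fitted together in edgeR 4.0.16 (R 4.3.3) after filterByExpr and TMM scaling, with 1 mean per genotype, robust quasi-likelihood, and Benjamini-Hochberg adjustment over all genes tested, with a threshold of 0.05. CPM values use the TMM factors. Ratios were tested by exact permutation. The pipeline was tested on simulated counts. Alternatives were other scalings and filters, DESeq2 1.42.0, limma 3.58.1 voom, the replicate number as a block, the compared genotypes alone and each library left out. The 10 genes and the lists were chosen with earlier results of these data known.

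In each list up to 3 genes were named by the smallest adjusted p in DKO against WT and up to 2 in Cbl-/- against WT, with Psmb5, Psmb6, Psmb7 and the H2-Q and H2-T genes. No 2 replicates agreed within sampling noise (chi-square per degree of freedom 3.93 to 55.3). Some genes that this rule names, and 1 promoter stretch, are not reported here.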

Additional observations from a re-analysis of the deposited data

Results flagged for a closer look

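For 7 genes the change in the libraries labelled DKO differed from the sum of the changes in both single-knockout labels, by the contrast of all 4 genotypes in edgeR's quasi-likelihood test with Benjamini-Hochberg adjustment over all genes. The departures on the log2 scale were 0.72 for Nlrc5 (adjusted p = 3.2e-04), 0.65 for B2m (adjusted p = 0.0020), 0.53 for Psmb10 (adjusted p = 0.0097), 0.48 for Tap1 (adjusted p = 0.0072), 0.37 for Psmb8 (adjusted p = 0.011), 0.34 for Tapbp (adjusted p = 0.034) and 0.32 for H2-K1 (adjusted p = 0.011). Groups of 3 libraries are too small for the search for single outlying libraries.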

How the results depend on the processing

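In DKO against WT 9 or 10 of the 10 genes were called in all 14 alternatives, H2-D1 being the one lost, and in DKO against Cbl-b-/- it was 9 in each of 14. In Cbl-/- against WT the count was 0 except for 1 (H2-D1) by DESeq2 and with the compared genotypes alone. By total counts the genes higher and lower over all genes numbered 1362 and 2747 in DKO against Cbl-/- (2027 and 1720 by TMM), 1543 and 3207 in DKO against Cbl-b-/- (2237 and 1974) and 711 and 1719 for the departure (1063 and 922). The departure from the sum of both singles held for 7 genes, 6 to 10 with single libraries left out and 4 with scaling by total counts. The call of H2-D1 between Cbl-b-/- and Cbl-/- was lost, leaving 0 genes, without each library except Cbl-/- 3, where it stayed at 1. The replicate numbers did not pair the samples: the correlation of same-numbered deviations was -0.054 to 0.052 over 18 pairs. With the replicate number as a block 9 genes passed in DKO against WT (H2-D1 at 0.13, adjusted p = 0.069), with no other call among the 10 genes changed. The fall of Ifngr1 was lost with the block (-0.16, adjusted p = 0.061), and for the Psmb8, Psmb9 and Psmb10 ratios the block kept the side of the threshold. The Psmb9 to Psmb6 difference was 0.223 to 0.325 with single libraries left out, and that of Psmb10 to Psmb7 was 0.24 to 0.479, and 0.35 (exact p = 0.012) against the mean of Psmb5, Psmb6 and Psmb7.

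Signs turned only for values near 0 that did not pass. By total counts Nlrc5 was at 0.0086 in Cbl-/- against WT, Tap2 at 0.0143 in Cbl-b-/- against WT and H2-D1 at -0.0199 in DKO against Cbl-b-/-. By limma voom Nlrc5 was at 0.0043 in Cbl-/- against WT, and with no filter B2m was at -6.9e-05 in Cbl-b-/- against WT. Psmb8 in Cbl-b-/- against Cbl-/- was at -7.2e-04 (DESeq2 size factors), -0.0025 (no filter), -5.7e-04 (at least 5 CPM in 3 libraries), -0.0012 (DESeq2) and -0.0023 (limma voom), and -0.0521 to 0.0624 with single libraries left out, while Tap1 was at -0.0578 to 0.0789. With single libraries left out in Cbl-/- against WT, H2-K1 was at -0.0154 to 0.0395, Nlrc5 at -0.0683 to 0.0865 and Psmb10 at -0.0212 to 0.0562, and in Cbl-b-/- against WT B2m was at -0.0371 to 0.0622, Tap2 at -0.0365 to 0.0369 and Nlrc5 at -0.0067 to 0.15. The cause of these shifts was not tested. The main fits and those with a library left out assume that the groups share their spread. With DKO and WT fitted alone, 3582 of 12484 genes tested were called, against 4485 of 12671 in the main fit. With Cbl-/- and WT fitted alone, 2753 of 12232 genes tested were called, against 1251 of 12671.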
